A study of Mus musculus with 8 samples.

Results

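The genes described here load and display peptides on MHC molecules in the sciatic nerve. They were taken by symbol as the 10 genes *H2-K1*, *H2-D1*, *B2m*, *Tap1*, *Tap2*, *Nlrc5*, *H2-Aa*, *H2-Ab1*, *H2-Eb1* and *Cd74*, out of 53090 genes in the deposited tables. All 10 passed the filter on low counts, which left 17090 genes for testing. Total RNA of whole sciatic nerves at P7 (postnatal day 7), when Schwann cells are myelinating, was sequenced after removal of ribosomal RNA to ask what the loss of neddylation changes in the transcriptome. *Nae1* encodes a subunit of the enzyme that activates NEDD8, the small protein that neddylation attaches to its targets. The 4 *Nae1* cKO nerves came from mice with both *Nae1* alleles floxed (Nae1 f/f) and a Cre recombinase that deletes exon 4 in Schwann cells; the other cells of the nerve are in the same RNA. The 4 control nerves, labelled WT, came from littermates without Cre that carried 1 or 2 floxed alleles (Nae1 f/+ or f/f). The sources used here do not say whether each library is a separate mouse, so p values measure the spread between these libraries. Each nerve goes by its label, and values per nerve follow the order K2, L1, L5 and L8 for *Nae1* cKO and K1, L3, L4 and L9 for control nerves.

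MHC class I molecules sit on nearly all nucleated cells and show them to CD8 T cells as a heavy chain (*H2-K1*, *H2-D1*) bound to beta-2-microglobulin (*B2m*) and a peptide that the TAP transporter (*Tap1*, *Tap2*) carries into the endoplasmic reticulum. MHC class II molecules pair an alpha chain (*H2-Aa*) with a beta chain (*H2-Ab1*; *H2-Eb1* is the beta chain of the other isotype), are guided by the invariant chain (*Cd74*) and are found mainly on macrophages, dendritic cells and B cells. Promoters of both classes carry a shared module of X and Y boxes at which RFX, CREB-type and NF-Y proteins bind and recruit NLRC5 for class I genes or CIITA for class II genes. In nerves, resident macrophages are the best known class II cells.

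The promoters show how the members differ as regulatory sequence, so the bases just upstream of the start sites are printed for 5 of them. RefSeq promoters of build GRCm38.p6 held an entry for 6 of the 10 members (*H2-K1*, *H2-D1*, *B2m*, *Tap1*, *H2-Aa* and *H2-Eb1*). The letters of 4 motifs were searched on both strands of the 250 bases before each start, and capitals mark their matches: the Y box core GATTGG, the CRE-like core of the X2 box TGACG, the kappa B site GGGGATTCC and the interferon response core GAAANNGAA or GAANNGAAA. Of all 32851 RefSeq promoters, 14.6% held the Y box core, 17.8% the CRE-like core, 0.21% the kappa B letters and 12.5% the interferon response core. Matches of different motifs shared no bases. For *H2-D1* the stretch is kept to 30 bases because the region lies in an annotated 5′ untranslated exon, and the same 30 bases are repeated for *H2-K1*.
H2-K1, chr17:34000348-34000547, minus strand: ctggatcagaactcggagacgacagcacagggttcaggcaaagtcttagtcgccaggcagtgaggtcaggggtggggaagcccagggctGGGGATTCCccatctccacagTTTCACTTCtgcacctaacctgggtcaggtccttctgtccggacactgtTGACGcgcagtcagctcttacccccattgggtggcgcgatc
H2-K1, chr17:34000429-34000458, minus strand: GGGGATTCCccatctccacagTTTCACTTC
H2-D1, chr17:35262923-35262952, plus strand: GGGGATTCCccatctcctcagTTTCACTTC
B2m, chr2:122147487-122147685, plus strand: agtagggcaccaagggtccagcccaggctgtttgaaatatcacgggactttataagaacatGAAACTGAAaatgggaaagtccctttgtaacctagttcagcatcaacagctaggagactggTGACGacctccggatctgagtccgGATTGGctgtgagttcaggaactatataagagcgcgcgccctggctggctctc
H2-Aa, chr17:34287824-34288023, minus strand: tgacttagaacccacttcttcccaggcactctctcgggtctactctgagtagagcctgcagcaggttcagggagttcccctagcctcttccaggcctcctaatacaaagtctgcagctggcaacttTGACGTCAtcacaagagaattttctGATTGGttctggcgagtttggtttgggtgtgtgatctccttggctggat
H2-Eb1, chr17:34305667-34305866, plus strand: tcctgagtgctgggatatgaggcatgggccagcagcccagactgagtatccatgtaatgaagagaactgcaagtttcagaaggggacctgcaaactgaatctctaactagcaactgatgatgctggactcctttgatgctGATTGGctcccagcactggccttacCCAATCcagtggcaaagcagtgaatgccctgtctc

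Both class I heavy chain genes held the kappa B letters and, a short distance downstream, the interferon response core, and their 30-base stretches were identical at 29 of 30 positions. Aligned over the 200 bases before their starts, the *H2-K1* and *H2-D1* promoters matched at 90.7% of 140 aligned bases. *H2-D1* also held the CRE-like core 101 to 97 bases and the Y box core 53 to 48 bases before its start. *H2-K1* held the CRE-like core 41 to 37 bases before its first RefSeq start, and a Y box core only in the window of its second start, 6 to 1 bases before it. *B2m* held the interferon response core, the CRE-like core and the Y box core in that order. *H2-Aa* held the CRE-like core on both strands, at bases they share, followed by the Y box core 49 to 44 bases before the start. *H2-Eb1* held the Y box core at 2 places. In *Tap1*, which is not printed, the Y box core lay 222 to 217 bases and the CRE-like core 86 to 82 bases before the start. A match describes the letters and is no measure of binding.

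Nerves held 12962798 to 13855366 expected counts in the *Nae1* cKO group and 13508752 to 14766770 in the control group. *Nae1* itself was at 51.8 ± 6.56 CPM in *Nae1* cKO nerves and 82.9 ± 5.07 CPM in control nerves (CPM, counts scaled to a common library size by TMM; SD, n = 4 each), with no overlap (log2 fold change −0.68, adjusted p = 2.8e-04 in edgeR's quasi-likelihood test). The count covers all exons and all cells of the nerve, so it says nothing of the share of exon 4 deleted. Schwann cell markers were detected throughout, with summed levels of 5839 to 6788 CPM in *Nae1* cKO nerves and 13740 to 23150 CPM in control nerves. *Nae1* cKO nerve K2 stood apart from its group, as the noncoding RNA 7SK took 4.70% of its library and 1.94% to 2.43% of the others. Control nerves K1 and L4 carried the most skeletal muscle RNA, at 1222 and 2015 CPM summed over 8 muscle markers, against 57.6 to 165 CPM in *Nae1* cKO nerves and 119 and 339.8 CPM in the other control nerves.

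Genes of both MHC classes were higher in *Nae1* cKO nerves, each by less than 2-fold. The light chain *B2m*, the transporter genes *Tap1* and *Tap2*, the class II chains *H2-Aa* and *H2-Ab1* and the invariant chain *Cd74* rose by 1.51-fold to 1.58-fold, and the heavy chain *H2-D1* rose by 1.30-fold. These 7 of 10 genes passed an adjusted p of 0.05 in edgeR's quasi-likelihood test, where 14.1% of the 17090 genes tested were called higher. None of the 10 was called lower by edgeR, DESeq2 or limma-voom, against 12.3% of all genes tested that edgeR called lower at an adjusted p of 0.05. At an unadjusted p under 0.05, none of the 10 was lower either. The share of all genes tested at that unadjusted cutoff was not worked out, so counts given at it have no background to be read against. The median log2 fold change was 0.61 over the 10 genes and 0.0066 over all genes tested. In 6 of the 10 all *Nae1* cKO nerves lay above all control nerves, a pattern that 14.9% of all genes tested showed, while none of the 10 was called at over 2-fold, against 4.25% of all genes tested. Without control nerves K1 and L4, a choice made after seeing the data that leaves 2 control nerves, 2 genes were called (*B2m* and *Cd74*) and the median log2 fold change was 0.57. On log2(TPM + 1) values with limma 0 were called, with a median of 0.48.

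**Figure D1:**
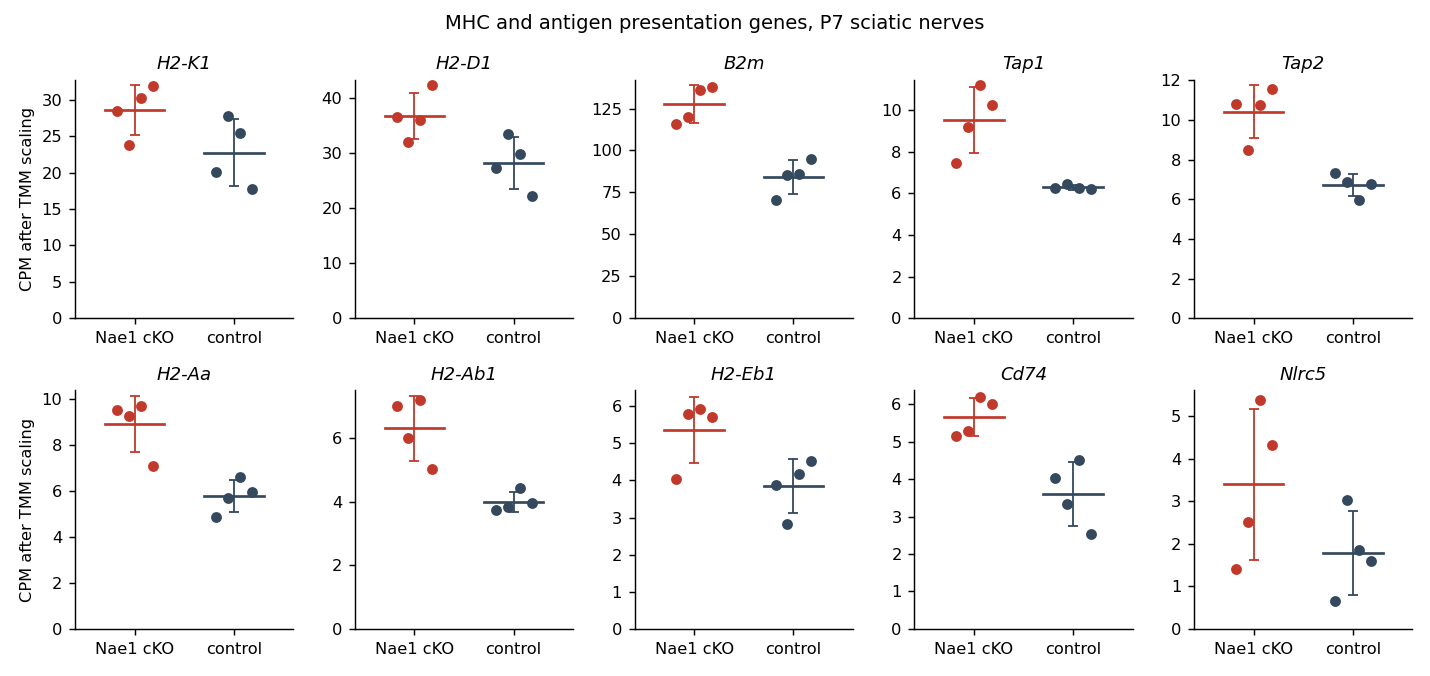
Levels of the 10 genes as CPM after TMM scaling (y axis, from 0) in 4 Nae1 cKO and 4 control P7 sciatic nerves, with 1 point per nerve, a line at the mean and a bar of 1 SD. The groups are apart for B2m, Tap1, Tap2, H2-Aa, H2-Ab1 and Cd74 and overlap for H2-K1, H2-D1, H2-Eb1 and Nlrc5.

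Of the class I chains, *B2m*, the invariant light chain shared by all class I molecules, had the smallest adjusted p. Its level was 116, 120.1, 136 and 138 CPM in *Nae1* cKO nerves and 70.5, 85.6, 86.2 and 94.8 CPM in control nerves. All *Nae1* cKO nerves lay above all control nerves (log2 fold change 0.60, SE 0.0988, adjusted p = 7.8e-04). *H2-D1*, a classical heavy chain, was at 36.6, 32.1, 36.1 and 42.4 CPM in *Nae1* cKO nerves and 27.4, 33.4, 29.9 and 22.2 CPM in control nerves. The groups overlapped through *Nae1* cKO nerve L1, the lowest of its group, and control nerve L3, the highest (log2 fold change 0.38, SE 0.128, adjusted p = 0.0457). That call rests close to the threshold and was lost in 6 of the 8 fits that left out 1 nerve, namely those without *Nae1* cKO nerve K2, L5 or L8 or without control nerve K1, L4 or L9, with adjusted p up to 0.134. *H2-K1*, the other classical heavy chain, was at 28.4, 23.8, 30.2 and 31.8 CPM in *Nae1* cKO nerves and 20.1, 27.7, 25.4 and 17.7 CPM in control nerves. Nerve L1 was again the lowest of the *Nae1* cKO nerves and lay below control nerves L3 and L4, and the gene did not pass the test (log2 fold change 0.33, SE 0.145, adjusted p = 0.119).

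The heavy chain genes are close copies of each other, which limits these values. Of the 50-base windows in *H2-K1* transcripts, 9.63% also occurred in other genes, chiefly the class I gene *H2-Q10*, and for *H2-D1* the share was 12.8%, chiefly with *H2-Q1*. *B2m* shared none. Of 29 class I heavy chain genes of the H2-K, H2-D, H2-Q, H2-T and H2-M groups in the data, 9 were tested. Of these, edgeR called 1 higher (*H2-D1*) and 0 lower, where it called 14.1% of all genes tested higher and 12.3% lower. At an unadjusted p under 0.05, for which no background share was worked out, 5 were higher and 0 lower. DESeq2 called 2 higher and 0 lower. Summed over all heavy chain genes, the level was 127, 96.1, 127 and 138 CPM in *Nae1* cKO nerves and 87.2, 112, 96.0 and 73.3 CPM in control nerves. The sum, fitted as 1 gene, had a log2 fold change of 0.41 (SE 0.137, adjusted p = 0.0492). *H2-K1* and *H2-D1* made up 51.1% to 58.2% of the summed heavy chain level in *Nae1* cKO nerves and 54.4% to 57.6% in control nerves.

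The 2 subunits of the peptide transporter both rose. *Tap1* was at 7.46, 9.20, 11.2 and 10.25 CPM in *Nae1* cKO nerves and 6.28, 6.44, 6.24 and 6.20 CPM in control nerves. Control nerves lay within a narrow band and all *Nae1* cKO nerves above it, with K2 the nearest (log2 fold change 0.60, SE 0.147, adjusted p = 0.0098). *Tap2* was at 10.8, 8.50, 10.7 and 11.6 CPM in *Nae1* cKO nerves and 7.30, 6.88, 5.95 and 6.75 CPM in control nerves, again without overlap (log2 fold change 0.63, SE 0.139, adjusted p = 0.0053). Of the exon bases of *Tap2*, 14.1% are shared with the opposite-strand noncoding gene *Gm15821*, and 3.87% of those of *Tap1* with the opposite-strand *Psmb9*. The library kit marks strand, and the strand setting of the counting is not given in the sources used here.

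Other genes that supply class I peptides were counted from lists by role. Beside each such count here and below stand the shares of all genes tested that edgeR called, 14.1% higher and 12.3% lower. Of 9 tested genes of peptide transport, trimming and loading, 5 rose and 0 fell in edgeR, DESeq2 and limma-voom, and 1 gene was lower at an unadjusted p under 0.05. The 5 were *B2m*, *Tap1*, *Tap2*, the trimming peptidase *Erap1* (27.6 ± 1.52 CPM in *Nae1* cKO nerves and 16.1 ± 1.55 CPM in control nerves, SD, n = 4 each; log2 fold change 0.78, adjusted p = 1.3e-04 in edgeR) and the loading bridge tapasin (*Tapbp*, log2 fold change 0.40, adjusted p = 0.0143 in edgeR). The general chaperones *Calr*, *Canx* and *Pdia3*, which fold many glycoproteins, were not called, with log2 fold changes of −0.06, −0.18 and 0.02. Of the 5 genes of PA28 and of the immunoproteasome, which cuts proteins into peptides, 3 rose. They were the catalytic subunit *Psmb8* (log2 fold change 0.73) and the PA28 genes *Psme1* (0.51) and *Psme2* (0.63). The other catalytic subunits, *Psmb9* (0.42) and *Psmb10* (−0.02), were not called. No gene of that list was lower at an unadjusted p under 0.05 or in DESeq2 or limma-voom.

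The class II genes were expressed at low levels and 3 of the 4 rose. *H2-Aa*, the alpha chain, was at 9.55, 9.27, 9.72 and 7.11 CPM in *Nae1* cKO nerves and 4.89, 5.72, 6.60 and 5.96 CPM in control nerves. Even L8, the lowest *Nae1* cKO nerve, lay above L4, the highest control nerve (log2 fold change 0.62, SE 0.154, adjusted p = 0.0103). Its partner *H2-Ab1* was at 7.01, 5.99, 7.21 and 5.02 CPM in *Nae1* cKO nerves and 3.73, 3.84, 4.45 and 3.97 CPM in control nerves. The same nerves marked the edges of the groups, L8 among *Nae1* cKO and L4 among control nerves, with no overlap (log2 fold change 0.66, SE 0.165, adjusted p = 0.0111).

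*Cd74*, the invariant chain that guides class II molecules to the compartment where they meet peptide, was at 5.15, 5.30, 6.19 and 5.99 CPM in *Nae1* cKO nerves and 4.02, 3.33, 4.52 and 2.54 CPM in control nerves. Groups did not overlap (log2 fold change 0.65, SE 0.190, adjusted p = 0.0247), on 69 to 91 counts in *Nae1* cKO nerves and 32 to 63 in control nerves. Its call was lost without *Nae1* cKO nerve L5 or L8 or without control nerve L3 or L9, with adjusted p up to 0.0720. *H2-Eb1*, the beta chain of the other class II isotype, was at 4.03, 5.78, 5.92 and 5.72 CPM in *Nae1* cKO nerves and 3.87, 2.82, 4.16 and 4.53 CPM in control nerves. K2 lay far below the other *Nae1* cKO nerves and within the control range, and the gene was not called (log2 fold change 0.48, SE 0.194, adjusted p = 0.0896). Without K2 its log2 fold change was 0.59 with an adjusted p of 0.0245. The alpha chain of that isotype is annotated only as a pseudogene, *H2-Ea-ps*, which had 0 counts in all nerves. The level of *H2-Eb1* therefore does not tell whether a molecule of that isotype is formed.

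The accessory genes of the class II pathway split in direction. *H2-DMa*, a chain of the H2-DM exchange factor that loads peptides onto class II molecules, fell: it was at 30.4, 20.4, 27.2 and 24.1 CPM in *Nae1* cKO nerves and 54.5, 36.6, 44.9 and 50.3 CPM in control nerves. The highest *Nae1* cKO nerve lay below the lowest control nerve, the reverse of the class II chains (log2 fold change −0.87, SE 0.144, adjusted p = 8.4e-04). *H2-DMa* stood at 77.5 to 118 CPM per 100 CPM of the 4 class II genes in *Nae1* cKO nerves and at 228 to 330 in control nerves. Its partner *H2-DMb1* was at 32.0 ± 3.15 CPM in *Nae1* cKO nerves and 36.9 ± 10.8 CPM in control nerves (SD, n = 4 each) and was not called (log2 fold change −0.20, adjusted p = 0.509). The genes that ready the compartment gave 9 tested rows, for the proteases, the thiol reductase *Ifi30* (2 rows) and the cathepsin inhibitor *Cst3*, of which 4 rose and 0 fell, with 8 higher and 0 lower at an unadjusted p under 0.05, and 5 higher and 0 lower in DESeq2. Cathepsin S (*Ctss*), the protease that removes the invariant chain, was at 45.1 ± 5.61 CPM in *Nae1* cKO nerves and 12.5 ± 0.233 CPM in control nerves (SD, n = 4 each; log2 fold change 1.85, adjusted p = 2.7e-07). Legumain (*Lgmn*, log2 fold change 1.06), *Ctsh* (0.74) and *Ctsb* (0.70) rose too. Of the genes that set class II turnover, the ubiquitin ligase *March1* (1.34) and *Cd83* (0.97), which protects class II from it, rose, and the broadly expressed ligase *March8* fell (−0.39).

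**Figure D2:**
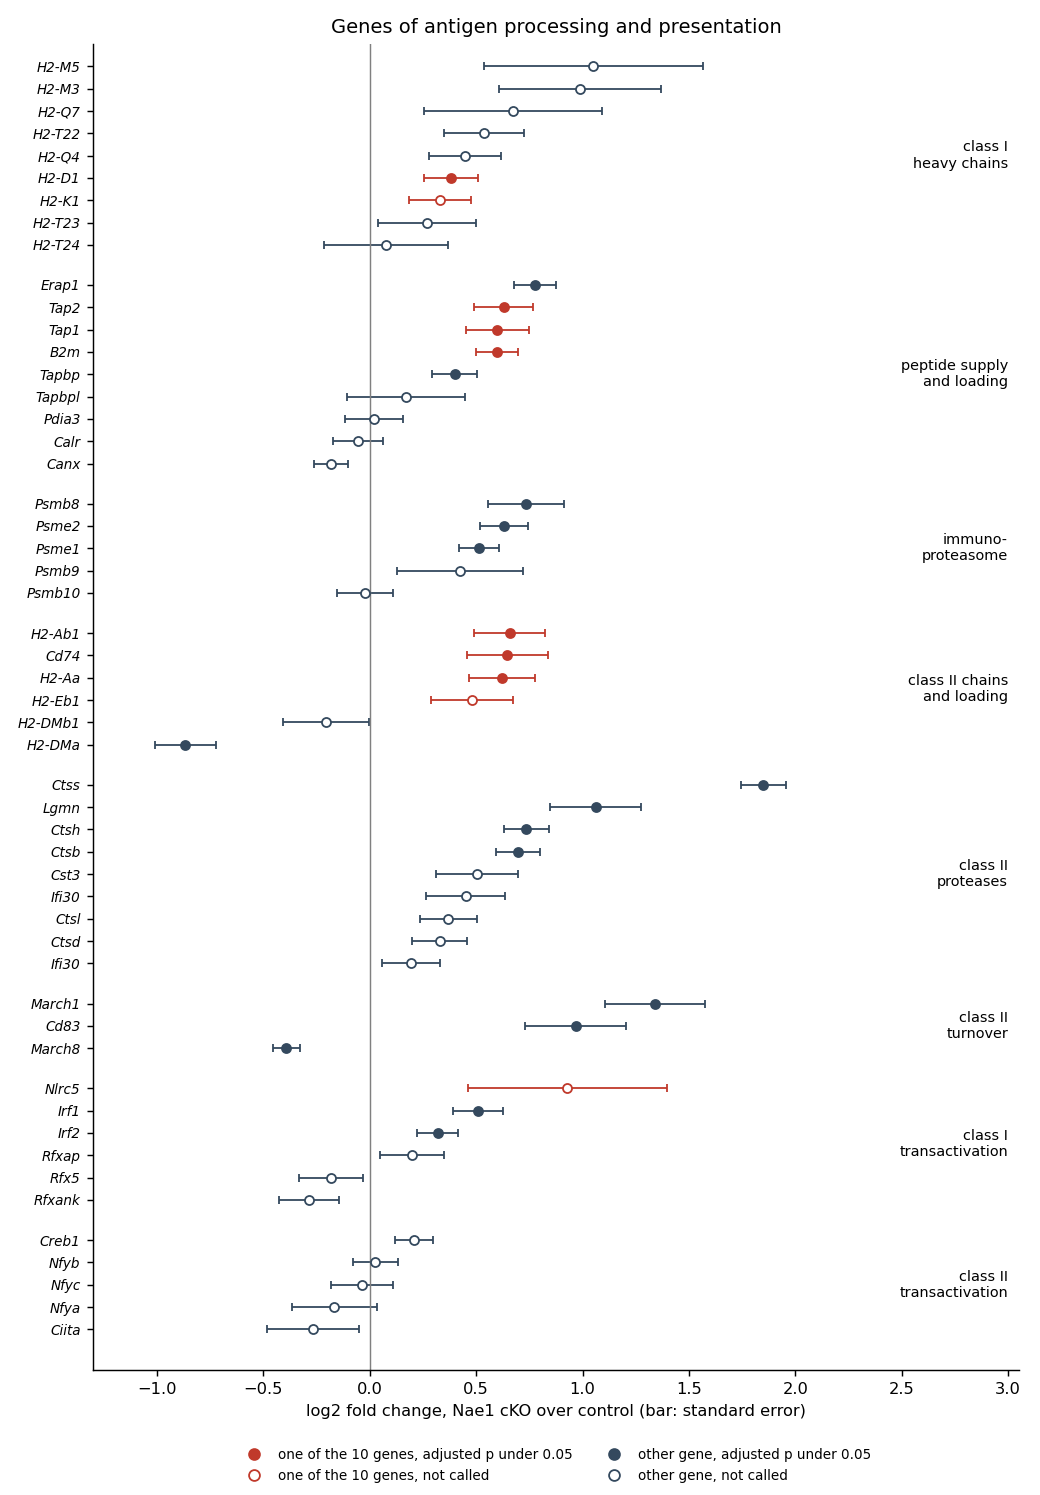
Log2 fold changes, Nae1 cKO over control nerves (x axis), for genes of antigen processing and presentation, grouped by role (y axis). Bars are standard errors worked out from the F statistic of edgeR's test. Filled points passed an adjusted p of 0.05 and red points are the 10 genes of the report. H2-DMa at −0.87 lies opposite to H2-Ab1 at 0.66, and Ctss at 1.85 lies farthest to the right.

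*Nlrc5*, the transactivator that drives class I genes, had the largest estimate among the 10 genes and the least certain one. It was at 1.42, 2.51, 5.37 and 4.32 CPM in *Nae1* cKO nerves and 0.657, 3.04, 1.86 and 1.59 CPM in control nerves. The K nerves were the lowest of both groups, and control nerve L3 lay above *Nae1* cKO nerves K2 and L1. It was not called (log2 fold change 0.93, SE 0.468, adjusted p = 0.178), on 19 to 79 counts in *Nae1* cKO nerves and 9 to 42 in control nerves. With the letter of the nerve's name as a term, whose meaning is not given in the sources used here, its log2 fold change was 0.93 with an adjusted p of 0.0252. Of the 7 genes listed for class I transactivation, 2 rose and 0 fell in edgeR, DESeq2 and limma-voom, with 2 higher and 0 lower at an unadjusted p under 0.05: the interferon regulatory factors *Irf1* (log2 fold change 0.51, adjusted p = 0.0069 in edgeR) and *Irf2* (0.32, adjusted p = 0.0269 in edgeR). The call of *Irf2* was lost in 10 of 20 alternatives. Among them were the fits without *Nae1* cKO nerve L5 or L8 or control nerve K1 or L9 (adjusted p up to 0.0925 in edgeR).

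The class II transactivator *Ciita* was at 2.11 ± 0.189 CPM in *Nae1* cKO nerves and 2.54 ± 0.557 CPM in control nerves (SD, n = 4 each) and was not called (log2 fold change −0.27, SE 0.217, adjusted p = 0.407 in edgeR). None of the 8 genes listed for class II transactivation, which hold the RFX and NF-Y subunits as well, was called by edgeR, DESeq2 or limma-voom, and 1 was higher at an unadjusted p under 0.05 (*Creb1*). Of 15 tested genes of the interferon gamma pathway, which induces both MHC classes, 7 rose and 0 fell in edgeR, with 7 higher and 1 lower at an unadjusted p under 0.05, and 6 higher and 0 lower in DESeq2. The 6 with the smallest adjusted p were *Gbp3* (log2 fold change 1.12), the kinase *Jak1* (0.45), *Irgm1* (0.83), *Gbp2* (0.66), *Irf1* and *Igtp* (0.67). The call of *Igtp* was lost in 6 of 20 alternatives, including those without *Nae1* cKO nerve L5 or control nerve L4 or L9 (adjusted p up to 0.0562 in edgeR). *Ifng* itself had 0 counts in all 8 nerves, which allows up to 0.231 CPM in the shallowest library (3 counts, counting error only), and so did *Ifnb1*. Of 11 tested genes of the type I interferon pathway, 5 rose, among them *Ifit3* (0.80) and *Isg15* (0.80), and 1 fell (*Tyk2*, −0.35) in edgeR, with 5 higher and 2 lower at an unadjusted p under 0.05. DESeq2 called 4 higher and 2 lower, and limma-voom called 4 higher and 1 lower. The call of *Isg15* was lost in limma-voom and on leaving out *Nae1* cKO nerve L5 or L8 or any 1 of the control nerves.

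Levels of different genes were compared as TPM, which the authors scaled for transcript length. *B2m* was by far the most abundant, at 133 ± 36.5 TPM in *Nae1* cKO nerves and 79.1 ± 16.5 TPM in control nerves (SD, n = 4 each). *H2-D1* followed at 16.7 ± 4.12 TPM in *Nae1* cKO nerves and 11.8 ± 2.23 TPM in control nerves, and *H2-K1* at 14.7 ± 3.38 TPM in *Nae1* cKO nerves and 10.7 ± 2.35 TPM in control nerves. The ranges of those heavy chains overlapped in both groups, while *B2m* stood clear above *H2-D1* and *H2-K1* stood clear above *H2-Aa*. Compared within each nerve, *H2-D1* lay above *H2-K1* in 3 of 4 *Nae1* cKO nerves and in 4 of 4 control nerves. *H2-Aa* averaged 6.73 TPM in *Nae1* cKO nerves and 4.07 TPM in control nerves, and *H2-Ab1* 4.39 TPM in *Nae1* cKO nerves and 2.76 TPM in control nerves. From *H2-Aa* through *H2-Ab1*, *H2-Eb1*, *Cd74*, *Tap2* and *Tap1*, the ranges of neighbours in the order overlapped in both groups. Within nerves, *H2-Aa* lay above *H2-Ab1* in 4 of 4 nerves of each group. The later neighbours up to *Tap1* kept their order in 3 or 4 *Nae1* cKO nerves and in 1 to 3 control nerves. *Nlrc5* was the lowest, at 1.005 ± 0.580 TPM in *Nae1* cKO nerves, where its range overlapped that of *Tap1*, and 0.593 ± 0.354 TPM in control nerves, where it did not. Within nerves it lay below *Tap1* in 4 of 4 nerves of each group. The order of the means was the same in both genotypes. On this scale *Nae1* cKO nerve K2 was the lowest of its group for all 10 genes, for example 79.1 TPM of *B2m* against 147 to 158 TPM in the other 3.

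Macrophage markers were higher in *Nae1* cKO nerves, as the class II genes were. Of 16 tested macrophage markers, 12 rose and 0 fell in edgeR, with 14 higher and 0 lower at an unadjusted p under 0.05, and their median log2 fold change was 0.86. Their summed level was 481 to 623 CPM in *Nae1* cKO nerves and 294 to 331 CPM in control nerves, a ratio of means of 1.67. The sum of *H2-Aa*, *H2-Ab1*, *H2-Eb1* and *Cd74* was 25.8, 26.3, 29.0 and 23.8 CPM in *Nae1* cKO nerves and 16.5, 15.7, 19.7 and 17 CPM in control nerves, a ratio of means of 1.52. Within each group the highest sums lay in different nerves: K2 and K1 for the macrophage markers, L5 and L4 for the class II genes. Set against the macrophage markers, the groups overlapped: the class II genes stood at 4.13 to 5.86 CPM per 100 CPM of macrophage markers in *Nae1* cKO nerves and at 4.99 to 6.18 in control nerves. *B2m* stood at 18.6 to 28.6 CPM per 100 CPM of macrophage markers in *Nae1* cKO nerves and at 21.3 to 31.0 in control nerves, and *H2-K1* and *H2-D1* together at 10.44 to 15.4 in *Nae1* cKO nerves and 13.05 to 20.8 in control nerves. In whole nerves, more cells of a type and more RNA per cell cannot be told apart, and the part of macrophages in the levels of the 10 genes was not tested.

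**Figure D3:**
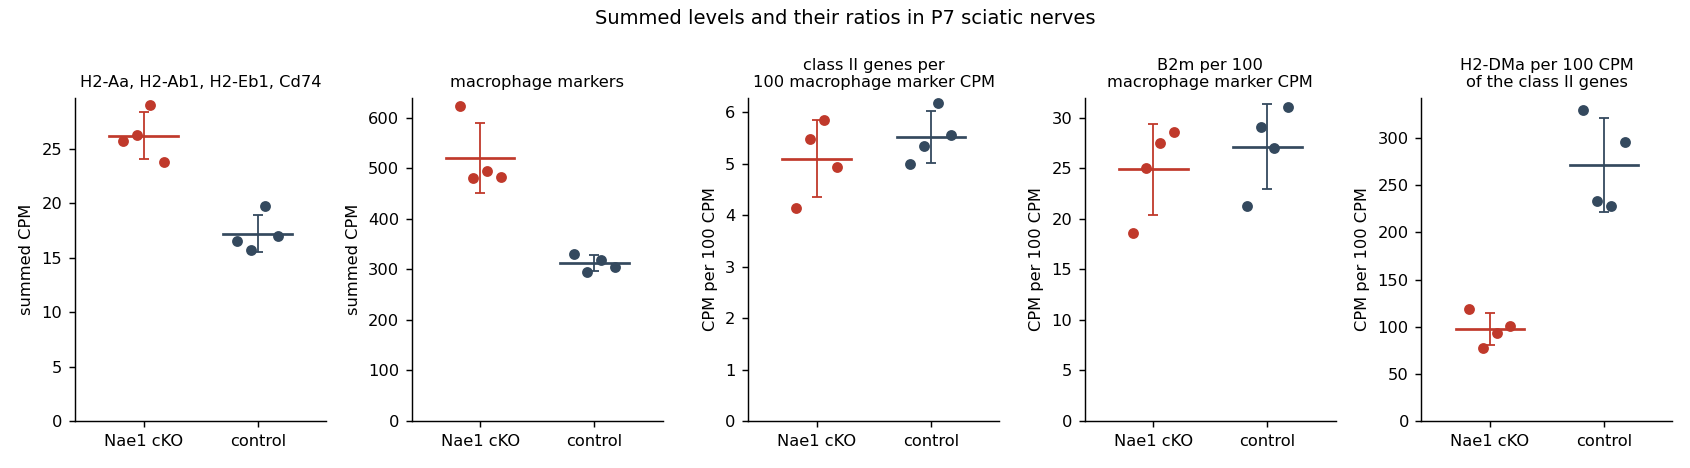
Summed CPM of the 4 class II genes and of the macrophage markers, and ratios of CPM, in 4 Nae1 cKO and 4 control nerves (y axes from 0; points are nerves, lines means, bars 1 SD). Both sums are apart between the groups, the 2 ratios to macrophage markers overlap, and H2-DMa per 100 CPM of the class II genes lies at 77.5 to 118 in Nae1 cKO nerves and 228 to 330 in control nerves.

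Most markers of dendritic, T, B and NK cells and of neutrophils were too low to test. Of 9 dendritic cell markers 3 were tested, of which *Siglech*, a marker of plasmacytoid dendritic cells that microglia also express, rose (17 to 27 counts in *Nae1* cKO nerves and 5 counts in each of the 4 control nerves, log2 fold change 2.11, adjusted p = 3.0e-04 in edgeR) and *Zbtb46*, which endothelium also expresses, fell (log2 fold change −0.43). The defining markers *Itgax* (0.527 CPM in *Nae1* cKO and 0.292 CPM in control nerves on average) and *Xcr1* (0.300 CPM in *Nae1* cKO and 0.394 CPM in control nerves on average) were too low to test. No T cell marker reached testing depth, and their sum was 1.19 to 1.77 CPM in *Nae1* cKO nerves and 0.715 to 1.65 CPM in control nerves. The B cell list gave 0.488 to 1.46 CPM in *Nae1* cKO nerves and 0.579 to 1.44 CPM in control nerves. Of 5 mast cell markers 4 were tested, and edgeR, DESeq2 and limma-voom called 0, with 1 higher and 0 lower at an unadjusted p under 0.05 and a median log2 fold change of 0.80. Their sum was 5.71 to 11.1 CPM in *Nae1* cKO nerves and 1.03 to 9.34 CPM in control nerves. Endothelial cells, which carry class I molecules, had 4 of 10 markers lower and 0 higher in edgeR, with 7 lower and 0 higher at an unadjusted p under 0.05. Fibroblast markers were higher for 5 of 8 genes and lower for 0 of 8, also at an unadjusted p under 0.05. The part of these cells in the levels of the 10 genes was not tested.

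Of the 10 genes, 7 lie in the MHC region of chromosome 17 (GRCm38, GENCODE vM21), from *H2-K1* on the minus strand at its start to *H2-D1* on the plus strand at its end (chr17:33996017-35267499). *B2m* lies on chromosome 2 (122147686 to 122153083, plus strand), *Nlrc5* on chromosome 8 (94434356 to 94527272, plus strand) and *Cd74* on chromosome 18. Calls in this region ran in both directions: 69 of its genes were tested, of which 10 were called higher and 12 lower, with a median log2 fold change of −0.11. Without the 7 members, 62 genes were left, of which 5 were called higher and 12 lower (median −0.20). On the rest of chromosome 17, 90 of 659 genes were called higher and 80 lower. In a block picked out after its values were seen, *Psmb9*, *Tap1*, *Psmb8*, *Tap2*, *H2-Ab1*, *H2-Aa* and *H2-Eb1* followed each other among the tested genes, with 5 of 7 called higher, 0 lower and a median of 0.62. *H2-DMa*, which fell, lies in the region too. The 5 other genes called higher were *Psmb8*, the complement gene *C4b* (log2 fold change 1.44), the macrophage gene *Aif1* (1.28), *Clic1* (0.78) and *1110038B12Rik* (0.30).

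**Figure D4:**
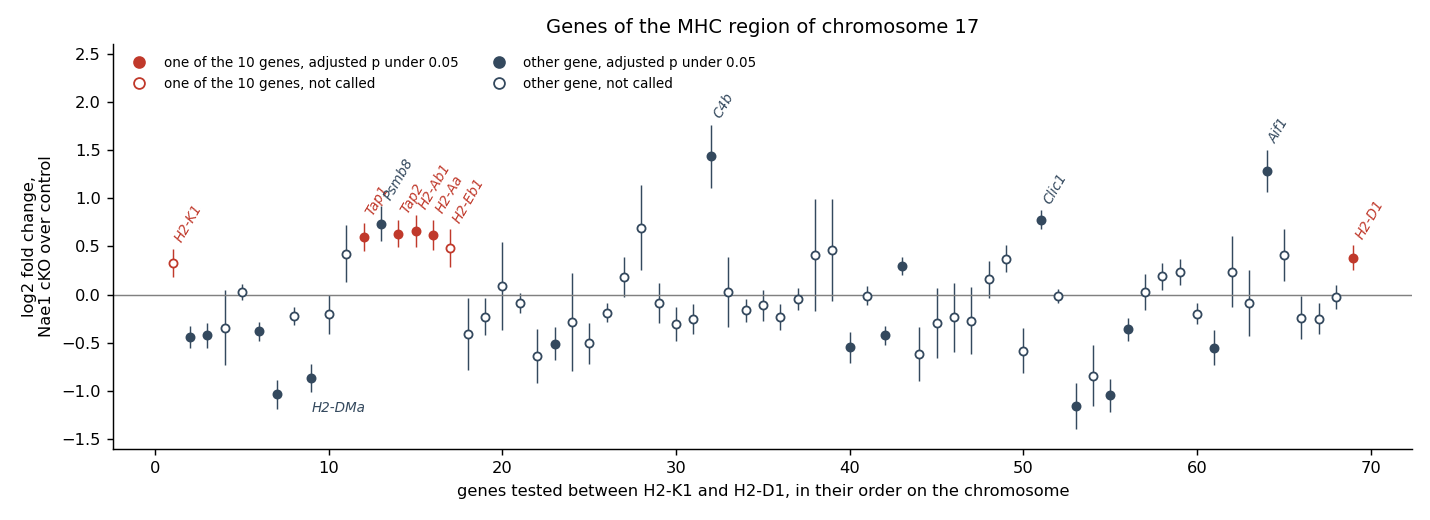
Log2 fold change, Nae1 cKO over control nerves (y axis; bars are standard errors), of the 69 genes tested between H2-K1 and H2-D1, in their order on the chromosome (x axis). Filled points passed an adjusted p of 0.05 and red points belong to the 10 genes. The red points lie above 0, at 0.33 for H2-K1 to 0.66 for H2-Ab1, while 12 other genes were called lower.

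Profiles over the 8 nerves were compared by the root mean square difference of centred log2 CPM, among 12751 genes whose mean count reached 50. This likeness is a description over 8 nerves that share their libraries. Nearest to the mean profile of the 4 class II genes were *Blm* (0.0716), *Slf1* (0.0805), *Wipf1* (0.0899), *Gm6878* (0.0906) and *Fam196b* (0.0918). *H2-Ab1* (0.112) and *H2-Aa* (0.124) were the class II genes closest to their own mean, and *H2-Eb1* (0.196) was the farthest. Nearest to the mean of *H2-K1*, *H2-D1*, *B2m* and *Tap1* were *Ncald* (0.0516), *Col6a1* (0.0657), *Prkab1* (0.0708), *Mmd* (0.0719) and *Enah* (0.0793). *Nlrc5* was the farthest of the 10 genes from both, at 0.605 from the class II mean and 0.523 from the class I mean.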

How the data were processed

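Total RNA libraries of 4 *Nae1* cKO and 4 control P7 sciatic nerves were made with a stranded kit after ribosomal RNA depletion, and genotypes were taken from the labels. For each nerve the authors deposited a gene table of RSEM with expected counts (estimated, unscaled and not whole), TPM (scaled by the authors for transcript length, to a fixed total in each nerve) and FPKM (scaled by the authors for length and depth). STAR, RSEM, GRCm38 and FastQC 0.11.5 are credited to the submitters' processing notes, and the methods of the paper name TopHat, mm10 and Cuffdiff, which need aligned reads and were not repeated. The annotation release and the strand setting of the counting were not given in the sources used here.

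Expected counts were rounded. Genes were kept by filterByExpr of edgeR 4.0.16 (R 4.3.3), scaled by TMM and compared by its robust quasi-likelihood test over the 8 nerves without covariates. Benjamini-Hochberg adjustment covered all 17090 genes tested, and a gene was called when its adjusted p fell under 0.05. The test gives no standard error, so each SE of an edgeR fit is the absolute log2 fold change divided by the square root of the F statistic. The common biological coefficient of variation was 0.158. The functions for the edgeR, DESeq2, limma-voom and limma fits were tested on simulated counts. Alternatives used DESeq2 1.42.0, limma 3.58.1, other scalings, filters and scales, the letter of the nerve's name, and each nerve left out. The members and gene lists were chosen with earlier results of these data known. Named genes were *Nae1*, the members, up to 6 called genes of each list by adjusted p, and the 5 nearest profiles to each class. Uncalled list genes, genes of the chromosome 17 region and list members of opposite direction were chosen with their values in view. Some items of the lists are not reported here.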

Additional observations from a re-analysis of the deposited data

Results flagged for a closer look

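Among 136 pairs of gene and genotype looked at (members, *Nae1* and the named genes of the lists), 11 had 1 nerve far from the other 3 of its group, where chance gives about 1 in 20. Of them 1 was a member: *H2-Eb1* had 4.03 CPM in K2, the other *Nae1* cKO nerves having 5.71 to 5.92 CPM. *Nae1* cKO nerve K2 was high for the protease *Lgmn* (107.9 CPM, against 52.8 to 58.7 CPM in the others of its group), the class II ligase *March1* (8.43 CPM, against 4.25 to 4.89 CPM), the complement gene *C1qa* (60.1 CPM, against 36.7 to 39.4 CPM) and the fibroblast marker *Pdgfra* (417.7 CPM, against 241 to 252 CPM). *March1* was also high in control nerve L4, at 2.44 CPM, against 2.10 to 2.14 CPM in the other control nerves. Control nerve L9 stood apart for *Jak1* (122 CPM, against 108 to 108.5 CPM), *Gbp3* (8.98 CPM, against 7.60 to 7.82 CPM), *Itgam* (4.85 CPM, against 5.95 to 6.15 CPM), *Siglech* (0.397 CPM, against 0.359 to 0.365 CPM) and *Pecam1* (40.9 CPM, against 51.1 to 51.6 CPM). Each control nerve held 5 counts of *Siglech*, so those 4 values differ only through the scaling to library size.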

How the results depend on the processing

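Of 201 refits of the 10 members, 167 kept direction and call, 23 lost a call, 11 gained one and 0 reversed. The sum of all heavy chain genes is in these counts for both *H2-K1* (call gained) and *H2-D1* (call kept), though it tests neither gene alone. Of 1157 refits of 58 other named genes, 987 kept direction and call, 170 lost a call and 0 reversed. The count of members called higher, 7 with edgeR, was 9 with library totals, with log2(FPKM + 1) and with log2(FPKM + 0.1), 0 with limma on log2(TPM + 1), 2 without control nerves K1 and L4 (chosen after seeing the data), 8 with the letter of the nerve's name as a term, 7 within the 6 nerves of the letter L, and 5 to 7 when 1 nerve was left out; members called lower stayed at 0 in each of these fits. All genes called higher numbered 2411 with edgeR, 3875 with library totals, 1165 with limma on log2(TPM + 1), 1273 without control nerves K1 and L4, and 1939 to 2723 with 1 nerve left out. All genes called lower numbered 2099 with edgeR, 1255 with library totals, 412 with limma on log2(TPM + 1), 1032 with limma on log2(FPKM + 1), 1025 with limma on log2(FPKM + 0.1), 1129 without control nerves K1 and L4, and 1644 to 2504 with 1 nerve left out. The causes were not tested. Leaving out K1 and L4 both lowers the number of nerves and removes the control nerves with the most skeletal muscle RNA, which cannot be told apart here. Library totals shifted the median of all genes to 0.16, log2(TPM + 1) to 0.10, log2(FPKM + 1) to 0.13 and log2(FPKM + 0.1) to 0.16, with members at 0.77, 0.48, 0.54 and 0.69. *H2-K1* passed with library totals, both FPKM scales and without control nerve L3 (adjusted p 0.0337 to 0.322 over its alternatives). The sum of all heavy chain genes passed too (adjusted p = 0.0492 in edgeR), but that fit does not test *H2-K1* alone. *Tap1*, *Tap2*, *H2-Aa* and *H2-Ab1* lost their calls only on log2(TPM + 1) and without K1 and L4, among the alternatives run. No paired analysis was possible because the nerves of the 2 groups share no replicate numbers. Class II and *Nlrc5* values rest on few counts, 9 to 143 per nerve, which limits their precision.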

Other observations

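Genes around antigen presentation that no comparison above used also differed. The costimulatory ligands *Cd86* (4.28 ± 2.13 CPM in *Nae1* cKO nerves and 2.03 ± 0.431 CPM in control nerves, SD, n = 4 each; adjusted p = 0.0259 in edgeR) and *Icosl* (log2 fold change 1.01, adjusted p = 0.0266 in edgeR) rose, of 4 costimulation genes tested, while *Cd274* had a log2 fold change of −0.80 and was not called. *Nae1* cKO nerve K2 was the highest of its group for both, at 7.39 CPM for *Cd86* and 7.61 CPM for *Icosl*, and without it the log2 fold changes were 0.67 and 0.69. The call of *Cd86* was lost in limma-voom, on both FPKM scales, and without control nerve L3 or L4 (adjusted p up to 0.0766 in edgeR). The call of *Icosl*, whose groups overlapped, was lost without *Nae1* cKO nerve K2 or L8 or control nerve K1, L3 or L9 (adjusted p up to 0.0726 in edgeR), and within the 6 nerves of the letter L. Both were lost without control nerves K1 and L4 together. *Hfe*, a class I-like molecule of iron metabolism that pairs with beta-2-microglobulin, rose (2.01-fold, adjusted p = 0.0054 in edgeR), and the other class I-like genes tested, *Mr1*, *Cd1d1*, *Fcgrt* and *Procr*, were not called. *Nae1* cKO nerve K2 had 32.6 CPM of *Hfe*, against 14.8 to 20.6 CPM in the others of its group. With 1 nerve left out its log2 fold change was 0.73 to 1.15. Its call was lost only without control nerves K1 and L4 together (adjusted p = 0.0765 in edgeR). The receptor gene *Klrb1c* rose (1.29 ± 0.511 CPM in *Nae1* cKO nerves and 0.257 ± 0.124 CPM in control nerves, SD, n = 4 each; adjusted p = 0.0018 in edgeR), while *Ncr1*, a defining marker of NK cells, had 0 counts in all 8 nerves, which allows up to 0.231 CPM in the shallowest library.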
